A study of Arabidopsis thaliana with 12 samples.

Results

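The Arabidopsis circadian clock genes described here are LHY (AT1G01060), CCA1 (AT2G46830), RVE8 (AT3G09600), PRR9 (AT2G46790), PRR7 (AT5G02810), PRR5 (AT5G24470), TOC1 (AT5G61380), GI (AT1G22770), ELF4 (AT2G40080) and LUX (AT3G46640, also called PCL1). These 10 genes were taken by identifier out of the 26093 genes of the deposited table, without use of their levels. Messenger RNA was sequenced from whole seedlings grown in continuous light on plant nutrient medium, with 3 libraries for each of 4 genotypes. The genotypes were the wild type Col-0, the single mutants atg2-4 and lon2-8, and the double mutant lon2-8 atg2-4, all in the Col-0 ecotype. ATG2 encodes a protein that autophagosomes need to form, and LON2 encodes a protease of the peroxisome matrix. The age was given as 6 days in 1 label and 8 days in another. No harvest hour and no light-dark cycle before the continuous light are given, so each value below is a level at an unstated hour and not a rhythm. Each mutant is represented by a single allele or allele pair.

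The plant clock is a set of transcription factors that repress and activate one another in sequence over the day. LHY and CCA1 are closely related MYB factors that peak near dawn and repress evening genes, while RVE8 is a MYB factor of the same family that activates them. The pseudo-response regulators PRR9, PRR7, PRR5 and TOC1 follow in turn and repress LHY and CCA1, and ELF4, LUX and ELF3 form the evening complex, which represses PRR9 among others. GI is a large protein of the late day that stabilises the F-box proteins degrading TOC1 and PRR5. In plants moved from light-dark cycles to continuous light, the rhythm of these genes can run on without an external cue. Whether the seedlings sampled here shared a phase is not known.

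The loop is read partly from the promoters, so the 300 bases before the annotated start are shown for LHY and CCA1, the related pair whose ratio is followed below, and for PRR5, TOC1 and LUX, whose windows held an evening element. Sequences are from the RefSeq assembly TAIR10.1, looked up by locus identifier because the deposited tables hold no coordinates and name no build. They run 5' to 3' on the strand of the gene. Capitals mark the motifs searched on both strands: the evening element AAATATCT (AGATATTT on the other strand), the CCA1-binding site AAAAATCT (AGATTTTT), the G-box CACGTG and the LUX-binding sites GATACG or GATTCG. These 4 motifs do not overlap in the windows shown.
LHY (chr1:37872-38171, - strand): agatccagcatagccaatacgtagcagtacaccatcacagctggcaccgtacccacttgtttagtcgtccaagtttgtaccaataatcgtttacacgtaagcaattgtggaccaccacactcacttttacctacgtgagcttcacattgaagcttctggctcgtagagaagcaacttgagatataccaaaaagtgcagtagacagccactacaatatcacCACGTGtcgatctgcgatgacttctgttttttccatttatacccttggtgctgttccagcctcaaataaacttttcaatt
CCA1 (chr2:19245291-19245590, + strand): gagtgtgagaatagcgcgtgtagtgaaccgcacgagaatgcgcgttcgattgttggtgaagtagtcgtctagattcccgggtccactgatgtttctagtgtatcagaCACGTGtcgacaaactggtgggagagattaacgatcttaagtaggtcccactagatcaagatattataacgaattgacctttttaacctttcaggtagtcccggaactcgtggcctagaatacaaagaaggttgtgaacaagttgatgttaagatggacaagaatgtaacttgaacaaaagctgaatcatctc
PRR5 (chr5:8358547-8358846, - strand): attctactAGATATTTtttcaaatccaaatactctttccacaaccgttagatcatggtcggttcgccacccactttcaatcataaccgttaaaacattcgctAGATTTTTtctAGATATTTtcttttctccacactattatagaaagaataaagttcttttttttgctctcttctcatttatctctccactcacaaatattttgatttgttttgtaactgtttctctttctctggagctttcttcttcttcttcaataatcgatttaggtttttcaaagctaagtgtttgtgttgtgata
TOC1 (chr5:24674663-24674962, + strand): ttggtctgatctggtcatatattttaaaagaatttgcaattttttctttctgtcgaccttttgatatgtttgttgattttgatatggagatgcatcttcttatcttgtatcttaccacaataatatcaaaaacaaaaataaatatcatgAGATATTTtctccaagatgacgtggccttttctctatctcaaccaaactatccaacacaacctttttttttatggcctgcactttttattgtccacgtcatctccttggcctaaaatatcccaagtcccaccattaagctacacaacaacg
LUX (chr3:17182742-17183041, + strand): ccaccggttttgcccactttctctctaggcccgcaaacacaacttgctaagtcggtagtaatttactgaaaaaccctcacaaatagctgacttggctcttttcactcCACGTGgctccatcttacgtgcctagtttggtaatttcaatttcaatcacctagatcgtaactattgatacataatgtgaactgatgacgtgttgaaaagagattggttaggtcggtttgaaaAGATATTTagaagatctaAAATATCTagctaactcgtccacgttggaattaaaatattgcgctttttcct

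The evening element, bound by LHY, CCA1 and RVE8, stood in 3 of the 9 windows reported and in 5.44% of 26091 promoters of the same length. It occurred at -292 and -187 in PRR5, at -151 in TOC1, and at -70 and -52 in LUX, counted in bases from the start to the first base of the motif. A CCA1-binding site lay at -198 in PRR5, against 7.52% of all promoters with one. G-boxes were found in 5 windows, at -80 in LHY, -193 in CCA1, -201 in PRR7 and -193 in LUX, and at -244 and -172 in PRR9, while 7.25% of all promoters held one. A LUX-binding site was present at -130 in PRR9, beside 14.6% of all promoters. The windows of RVE8 and GI held none of these letters. A match is a description of the sequence and no evidence of binding in these seedlings.

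Library depth, recovered from the FPKM values, was 14481170 to 18690658 fragments. FPKM is the number of fragments scaled to transcript length and library size, so levels can be compared between genes. Changes are log2 fold changes on the log2(FPKM + 1) scale with their standard error, and adjusted p values are from limma with Benjamini-Hochberg adjustment over the 20662 genes tested (two-sided, threshold 0.05). The libraries are called biological replicates in the series design. Each p value sets a difference between genotypes against the spread between libraries of the same genotype, pooled over all 12 libraries. In all 6 records of single mutants the title contradicts the genotype tag, and groups were taken from the names of the columns. Mean LON2 was 25.9 FPKM (Col-0), 22.3 (atg2-4), 11.6 (lon2-8) and 4.78 (double mutant; n = 3 each). Mean ATG2 was 7.71 FPKM (Col-0), 6.31 (atg2-4), 7.58 (lon2-8) and 6.59 (double mutant). The fall of ATG2 in atg2-4 was small, 0.25 ± 0.06 (adjusted p = 0.00398), so its transcript is a weak check of that group. Whole seedlings were used, so fewer cells of a type and less RNA per cell cannot be told apart. The summed level of 5 mesophyll markers ranged over 9040 to 9245 FPKM (Col-0), 8294 to 8900 (atg2-4), 9702 to 10263 (lon2-8) and 8774 to 9176 (double mutant). That of 8 root markers ranged from 1232 to 1273, 755 to 797, 1834 to 1981 and 812 to 847 FPKM in the same order, and that of 3 markers of meristem and dividing cells over 15.1 to 16.7, 10.7 to 12.7, 13.4 to 14.8 and 9.89 to 11.5. A sum follows its most abundant genes, so the root sums do not show what each root marker did. Of the 6 root markers above the filter, 1 passed as higher and 1 as lower for atg2-4 against Col-0 (median log2 fold change -0.08). For lon2-8 the numbers were 2 and 1 (median 0.19), and for both mutations together 0 and 2 (median -0.21). No mesophyll, root or meristem marker in these sums was at 0 in all libraries of a genotype. The deposited table holds no gene at 0 in every library, so this says little about detection. The part of the markers in the results was not tested.

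The clock genes moved by small amounts. In atg2-4, 6 of the 9 tested clock genes passed the test, LHY and PRR7 higher and CCA1, RVE8, PRR5 and GI lower, while 48.5% of all genes passed, 21.3% higher and 27.2% lower. In lon2-8, LHY, CCA1, RVE8 and GI were lower, 4 of 9 beside 23.1% of all genes, 9.06% higher and 14.1% lower. In the double mutant 7 of 9 passed against Col-0, LHY higher and CCA1, RVE8, PRR5, TOC1, GI and ELF4 lower, beside 52.0% of all genes, 22.0% higher and 30.1% lower. The comparisons against Col-0 share its libraries. The median log2 fold change of the 9 genes was -0.08, -0.19 and -0.16 in these 3 comparisons, and that of all genes tested was -0.05, -0.04 and -0.05. These counts of 9 exceed the shares of all genes by few genes, and nothing particular to the clock is read from them. The count in atg2-4 fell to 3 without Col-0 library 2 or without atg2-4 library 1. PRR9 lay under 1 FPKM in all libraries and was not among the genes tested.

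**Figure D1:**
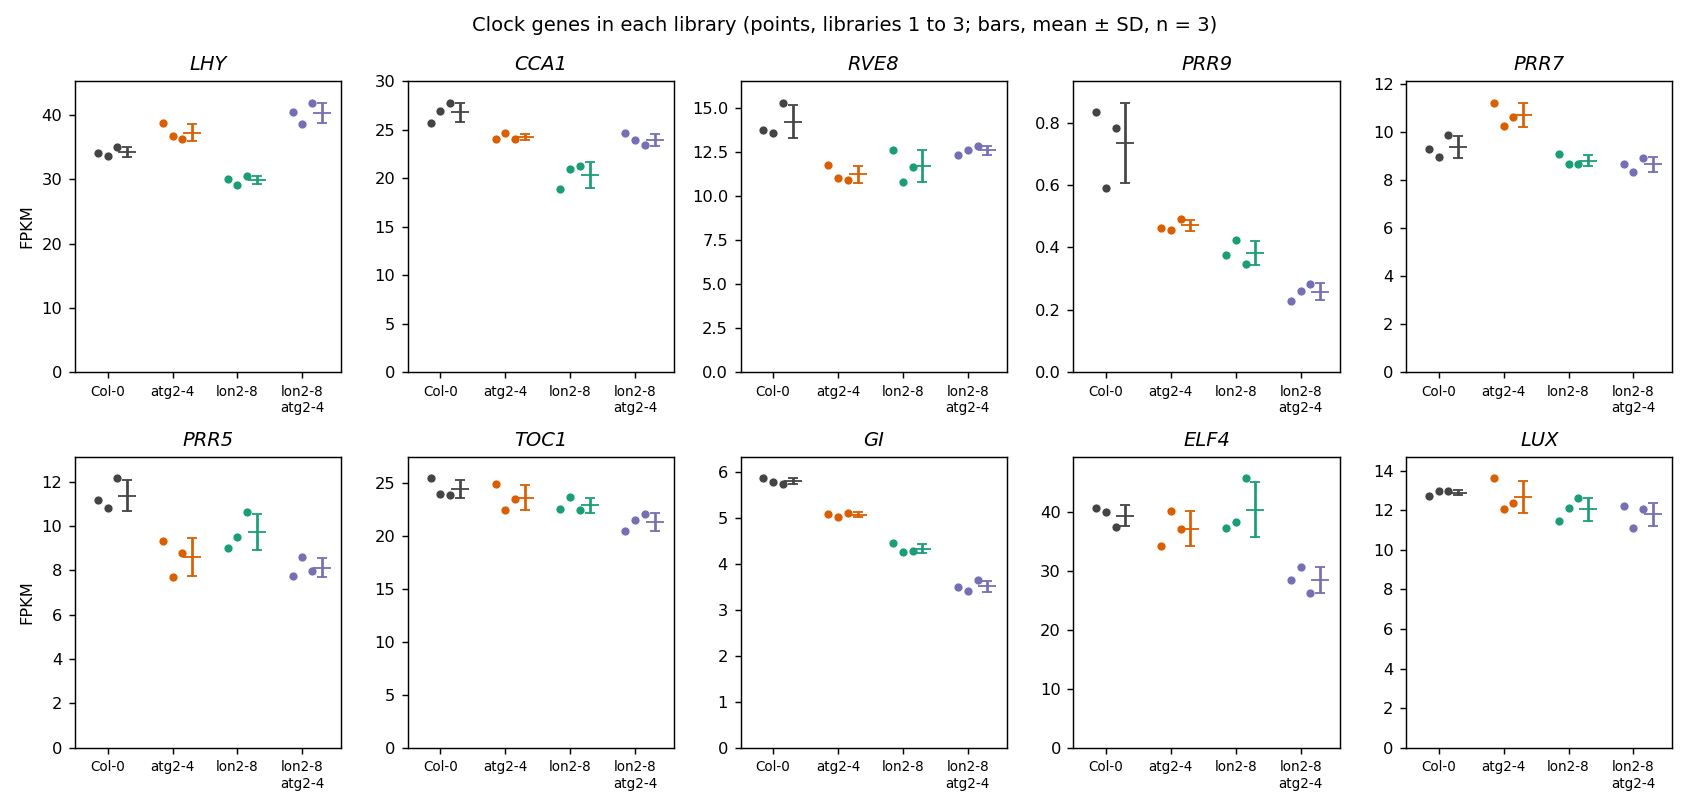
Level of each clock gene in FPKM (vertical axes, from 0) in libraries 1 to 3 of each genotype (points), with the mean and SD (bars, n = 3). GI steps down from Col-0 at 5.75 to 5.87 FPKM to the double mutant at 3.42 to 3.65, and LHY is lowest in lon2-8 and highest in the double mutant.

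Of the morning genes, LHY was the one that differed in direction between the mutants. Levels in libraries 1, 2 and 3 were 34.1, 33.6 and 35.1 FPKM (Col-0), 38.8, 36.7 and 36.3 (atg2-4), 30.0, 29.2 and 30.5 (lon2-8) and 40.5, 38.6 and 41.8 (double mutant). No lon2-8 library reached the level of a Col-0 library, and the atg2-4 and double mutant libraries all lay above Col-0. LHY rose by 0.12 ± 0.04 in atg2-4 (adjusted p = 0.0275), a call lost without Col-0 library 1 or 2 or atg2-4 library 1 (adjusted p up to 0.103) and without the variance trend (adjusted p = 0.0518). It fell in lon2-8 by 0.19 ± 0.04 (adjusted p = 0.00379). The double mutant exceeded Col-0 by 0.23 ± 0.04 (adjusted p = 3.38e-04) and lon2-8 by 0.42 ± 0.04 (adjusted p = 1.54e-06). Its difference from atg2-4, 0.11 with a 95% interval of 0.03 to 0.20, did not pass after adjustment (adjusted p = 0.103), and these libraries overlapped.

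CCA1, the close relative of LHY, was lower than Col-0 in all 3 mutants. Its levels were 25.7, 26.9 and 27.7 FPKM (Col-0), 24.1, 24.6 and 24.1 (atg2-4), 18.8, 21.0 and 21.2 (lon2-8) and 24.7, 23.9 and 23.4 (double mutant). The lon2-8 libraries lay below all others, and those of atg2-4 and the double mutant overlapped. The fall in lon2-8 was 0.38 ± 0.05 (adjusted p = 7.82e-05). CCA1 fell by 0.14 ± 0.05 with atg2-4 alone (adjusted p = 0.0284) and by 0.15 ± 0.05 with both mutations (adjusted p = 0.0153). The first of these calls was lost without Col-0 library 2 or 3 or atg2-4 library 1 or 3 (adjusted p up to 0.104), the second without Col-0 library 3 or double mutant library 3 (adjusted p up to 0.0634). CCA1 was higher in the double mutant than in lon2-8 by 0.23 ± 0.05 (adjusted p = 0.00127), while its difference from atg2-4 was -0.02 (95% interval -0.12 to 0.09).

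RVE8, the activating MYB gene, was at 13.8, 13.6 and 15.3 FPKM (Col-0), 11.8, 11.0 and 10.9 (atg2-4), 12.6, 10.8 and 11.7 (lon2-8) and 12.3, 12.6 and 12.8 (double mutant). Every mutant library was below every Col-0 library. RVE8 fell by 0.32 ± 0.06 in atg2-4 (adjusted p = 7.27e-04) and by 0.26 ± 0.06 in lon2-8 (adjusted p = 0.00657). The fall of 0.16 ± 0.06 in the double mutant (adjusted p = 0.0363) did not pass without Col-0 library 3 or without any 1 of the double mutant libraries (adjusted p 0.0553 to 0.156). The double mutant differed from atg2-4 by 0.15 (95% interval 0.02 to 0.28, adjusted p = 0.137) and from lon2-8 by 0.10 (-0.03 to 0.23, adjusted p = 0.178).

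Although LHY and CCA1 are often treated as partners, their levels parted within the libraries. The ratio of LHY to CCA1 in FPKM was 1.33, 1.25 and 1.27 (Col-0), 1.61, 1.49 and 1.51 (atg2-4), 1.59, 1.39 and 1.44 (lon2-8) and 1.64, 1.62 and 1.79 (double mutant). All 9 mutant libraries were above all 3 Col-0 libraries. The ratio of RVE8 to CCA1 had means of 0.531 ± 0.0237 (Col-0), 0.463 ± 0.0225 (atg2-4), 0.578 ± 0.0809 (lon2-8) and 0.526 ± 0.0241 (double mutant) (SD, n = 3). These ratios are descriptions and were not tested.

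**Figure D2:**
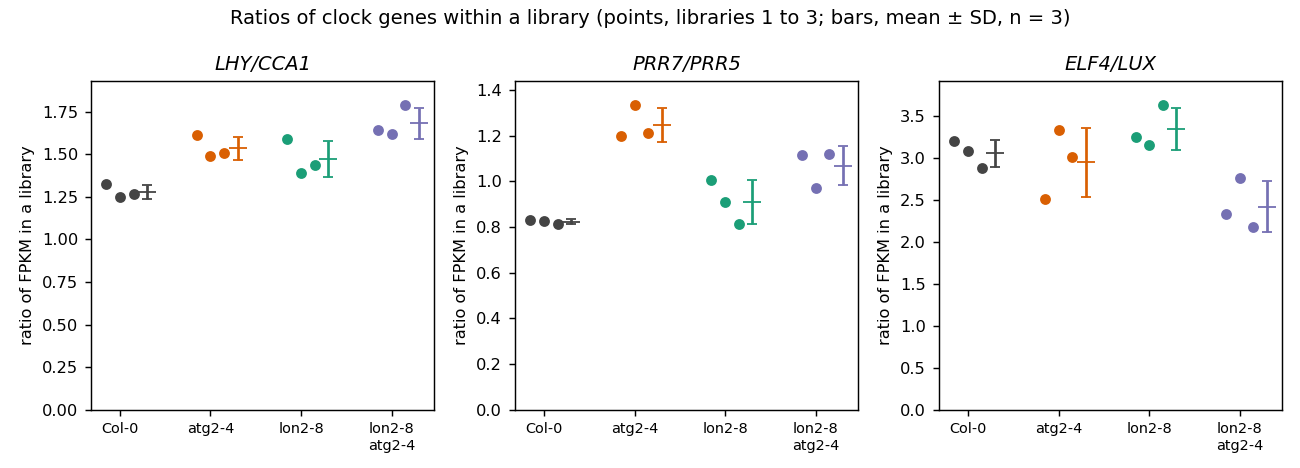
Ratio of the FPKM of 2 clock genes within each library (vertical axes, from 0), with libraries 1 to 3 of each genotype as points and the mean and SD as bars (n = 3). The LHY to CCA1 ratio lies between 1.25 and 1.33 in Col-0 and between 1.39 and 1.79 in the mutants, and the PRR7 to PRR5 ratio is highest in atg2-4.

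Among the pseudo-response regulators, PRR9 was barely detected. Col-0 libraries held 36, 28 and 32 fragments of it, atg2-4 libraries 20, 17 and 23, lon2-8 libraries 15, 20 and 16, and double mutant libraries 11, 12 and 12. In FPKM the means were 0.736 ± 0.129, 0.471 ± 0.0188, 0.381 ± 0.0383 and 0.258 ± 0.0273 in that order (SD, n = 3). Every mutant library was below every Col-0 library. With no filter on low values, limma gave changes of -0.24 ± 0.06 in atg2-4 (adjusted p = 0.00747), -0.33 ± 0.06 in lon2-8 (adjusted p = 0.00268) and -0.46 ± 0.06 with both mutations (adjusted p = 5.76e-05). At this level the added 1 FPKM shrinks the change, and the ratio of mean FPKM was 0.640, 0.518 and 0.350. The double mutant was lower than atg2-4, at -0.23 ± 0.06 (adjusted p = 0.0440), and against lon2-8 the change was -0.14 (adjusted p = 0.0917).

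PRR7 was at 9.30, 8.94 and 9.87 FPKM (Col-0), 11.2, 10.3 and 10.6 (atg2-4), 9.07, 8.68 and 8.66 (lon2-8) and 8.67, 8.33 and 8.93 (double mutant). Only the atg2-4 libraries stood above all Col-0 libraries. PRR7 rose in atg2-4 by 0.17 ± 0.05 (adjusted p = 0.0123), though not without Col-0 library 2 (adjusted p = 0.0564) or atg2-4 library 1 (adjusted p = 0.0509). From atg2-4 to the double mutant it fell by 0.28 ± 0.05 (adjusted p = 0.00466). Changes against Col-0 were -0.08 in lon2-8 (95% interval -0.19 to 0.03) and -0.10 in the double mutant (-0.21 to 0.01), and neither passed.

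PRR5 moved the other way from PRR7 in atg2-4. It was at 11.2, 10.8 and 12.2 FPKM (Col-0), 9.35, 7.70 and 8.79 (atg2-4), 9.03, 9.53 and 10.6 (lon2-8) and 7.77, 8.60 and 7.98 (double mutant). Every mutant library was below the Col-0 libraries, and atg2-4 overlapped with the double mutant. PRR5 fell by 0.37 ± 0.07 with atg2-4 (adjusted p = 0.00122) and by 0.44 ± 0.07 with both mutations (adjusted p = 2.68e-04). In lon2-8 the change was -0.21 ± 0.07 (adjusted p = 0.0620), and it passed with a filter of 5 FPKM (adjusted p = 0.0497), without atg2-4 library 2 (adjusted p = 0.0393) or without lon2-8 library 3 (adjusted p = 0.0319). PRR5 was lower in the double mutant than in lon2-8, at -0.23 ± 0.07 (adjusted p = 0.0192), a call lost without lon2-8 library 3 or double mutant library 1 or 3 (adjusted p up to 0.0880). The ratio of PRR7 to PRR5 was 0.833, 0.826 and 0.811 in Col-0, with a mean of 0.823 ± 0.0110, and had a mean of 1.25 ± 0.0737 in atg2-4 (SD, n = 3). In lon2-8 it was 1.01, 0.911 and 0.814, and in the double mutant 1.12, 0.969 and 1.12. PRR7 was thus below PRR5 in the Col-0 libraries and above it in those of atg2-4.

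TOC1, the evening repressor whose window holds a single evening element, varied little. Its levels were 25.4, 23.9 and 23.9 FPKM (Col-0), 24.8, 22.4 and 23.5 (atg2-4), 22.5, 23.7 and 22.4 (lon2-8) and 20.4, 21.4 and 22.0 (double mutant). It fell in the double mutant by 0.19 ± 0.05 (adjusted p = 0.00433), where all libraries were below all others. The changes of -0.05 in atg2-4 (95% interval -0.15 to 0.05) and -0.09 in lon2-8 (-0.19 to 0.01) did not pass. The double mutant differed from atg2-4 by -0.14 (adjusted p = 0.0811) and from lon2-8 by -0.10 (adjusted p = 0.0981), and the latter passed with libraries centred on their medians (adjusted p = 0.0276).

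GI, the late-day gene, fell in every mutant and furthest in the double mutant. It was at 5.87, 5.79 and 5.75 FPKM (Col-0), 5.09, 5.02 and 5.12 (atg2-4), 4.46, 4.26 and 4.29 (lon2-8) and 3.49, 3.42 and 3.65 (double mutant). The 4 genotypes did not overlap. Against Col-0 GI fell by 0.16 ± 0.05 with atg2-4 (adjusted p = 0.0156), by 0.35 ± 0.05 with lon2-8 (adjusted p = 2.36e-04) and by 0.59 ± 0.05 with both (adjusted p = 4.97e-07). The double mutant was also below atg2-4, at -0.43 ± 0.05 (adjusted p = 2.19e-04), and below lon2-8, at -0.24 ± 0.05 (adjusted p = 0.00129). None of these 5 calls was lost when any 1 library was left out. The level of mutant to wild type, as a ratio of mean FPKM, was 0.874, 0.747 and 0.606.

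In the evening complex, ELF4 was lower in the double mutant than in any other group. It was at 40.8, 39.95 and 37.4 FPKM (Col-0), 34.2, 40.1 and 37.1 (atg2-4), 37.2, 38.2 and 45.7 (lon2-8) and 28.4, 30.6 and 26.2 (double mutant). The first 3 groups overlapped one another, and the double mutant overlapped none. ELF4 fell in the double mutant by 0.46 ± 0.08 against Col-0 (adjusted p = 3.44e-04) and by 0.49 ± 0.08 against lon2-8 (adjusted p = 2.02e-04). The fall of 0.37 ± 0.08 against atg2-4 (adjusted p = 0.0118) was not called without double mutant library 3 (adjusted p = 0.0545). The single mutants differed from Col-0 by -0.08 in atg2-4 (95% interval -0.26 to 0.09) and 0.03 in lon2-8 (-0.14 to 0.20).

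LUX, the DNA-binding member of the complex, passed the test in none of the 6 comparisons. It was at 12.7, 13.0 and 13.0 FPKM (Col-0), 13.6, 12.1 and 12.3 (atg2-4), 11.5, 12.1 and 12.6 (lon2-8) and 12.2, 11.1 and 12.1 (double mutant). The change in the double mutant was -0.12 ± 0.05 (adjusted p = 0.0819). LUX overlaps AT3G46650 on the opposite strand, and whether strand was used in counting is not stated in the labels, so its reads may include those of its neighbour. The ratio of ELF4 to LUX was 3.20, 3.08 and 2.88 (Col-0), 2.51, 3.33 and 3.01 (atg2-4), 3.25, 3.16 and 3.63 (lon2-8) and 2.33, 2.75 and 2.17 (double mutant). The double mutant overlapped with atg2-4 in this ratio and with no other group.

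**Figure D3:**
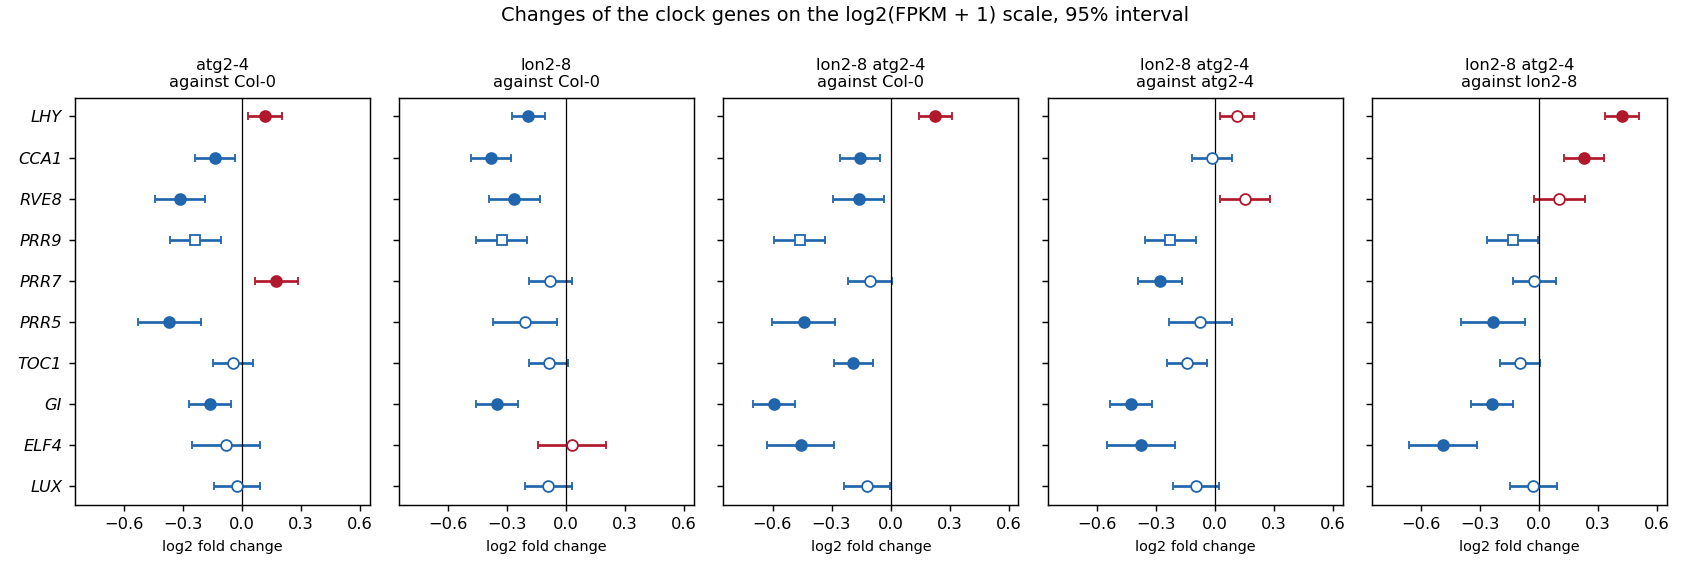
Log2 fold change of each clock gene on the log2(FPKM + 1) scale (horizontal axes) with its 95% interval in 5 comparisons; filled points passed at an adjusted p of 0.05, open circles did not, red is higher and blue lower. PRR9 (open squares) is from the fit with no filter on low values; GI lies below 0 in all 5 comparisons, from -0.16 to -0.59.

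The double mutant was also set against each single mutant. Of the 9 clock genes, PRR7, GI and ELF4 fell from atg2-4 to the double mutant, 3 of 9, all lower, beside 8.88% of all genes that passed, 4.44% of them higher and 4.44% lower. Adding atg2-4 to lon2-8 moved 5 of 9, LHY and CCA1 up and PRR5, GI and ELF4 down, beside 49.9% of all genes, 25.3% higher and 24.6% lower. The median of the 9 genes was -0.09 in the first comparison and -0.03 in the second, and that of all genes tested was -0.02 and -0.01.

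The interaction is the change from atg2-4 to the double mutant minus the change from Col-0 to lon2-8. It passed for 4 of the 9 genes, 3 positive and 1 negative, beside 13.2% of all genes, 7.10% positive and 6.08% negative. For the 3 morning genes it was positive, at 0.30 ± 0.06 in LHY (adjusted p = 0.00330), 0.37 ± 0.07 in CCA1 (adjusted p = 0.00301) and 0.42 ± 0.08 in RVE8 (adjusted p = 0.00573). All 3 fell with lon2-8 in Col-0, and the corresponding changes in atg2-4 were 0.11, -0.02 and 0.15, of which none passed. For ELF4 it was negative, at -0.41 ± 0.11 (adjusted p = 0.0314). That call was lost without Col-0 library 2 or 3, atg2-4 library 2 or 3, lon2-8 library 3 or double mutant library 1 or 3 (adjusted p up to 0.0783), and without the variance trend (adjusted p = 0.0555). The interaction in GI was -0.08 with a 95% interval of -0.23 to 0.08, that in PRR5 0.13 (-0.09 to 0.36) and that in TOC1 -0.05 (-0.19 to 0.09). PRR7 gave -0.20 (adjusted p = 0.0912), which passed under the same centring (adjusted p = 0.0485).

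**Figure D4:**
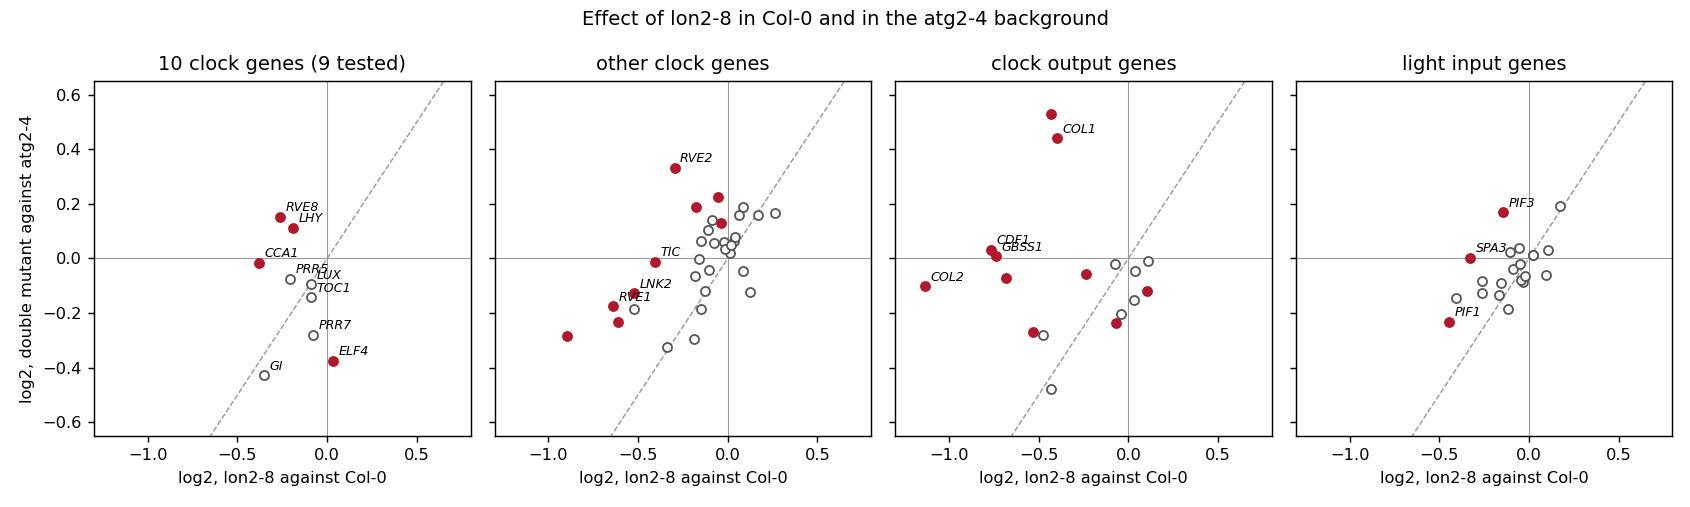
Log2 fold change of lon2-8 against Col-0 (horizontal axes) and of the double mutant against atg2-4 (vertical axes) for the clock genes and 3 lists of related genes; the dashed line marks equal effects, and filled points passed the interaction test. LHY, CCA1 and RVE8 lie above the line and ELF4 below it.

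The order of the clock genes by level was read from FPKM. In Col-0 it ran ELF4, LHY, CCA1, TOC1, RVE8, LUX, PRR5, PRR7, GI and PRR9, and no neighbours in the order overlapped. In atg2-4 LHY stood first, LHY overlapped with ELF4, CCA1 with TOC1 and RVE8 with PRR7, and LUX stood above RVE8. In lon2-8 ELF4 led, TOC1 was above CCA1, and LUX overlapped with RVE8 and PRR5 with PRR7. In the double mutant LHY, at 40.3 ± 1.60 FPKM, stood clear of ELF4 at 28.4 ± 2.20 (SD, n = 3), and PRR7 overlapped with PRR5.

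In the authors' deposited table for atg2-4, LHY and PRR7 are listed as higher and RVE8, PRR9 and PRR5 as lower at a false discovery rate under 0.05, by a test that is not stated. The authors' deposited table for lon2-8 lists LHY, CCA1, RVE8, PRR9, PRR5 and GI as lower, and that for the double mutant lists LHY as higher and PRR9, PRR5, GI and ELF4 as lower. In the authors' deposited table of the double mutant against atg2-4, RVE8 is higher and PRR7, GI and ELF4 are lower. The sign was the same as in the limma fit for 10 of 10 genes in each table. These tables hold the same FPKM that limma was fitted on, so the like sign is no independent support. Some limma calls against Col-0 are not shared by the authors' deposited tables. There CCA1 and GI in atg2-4 have false discovery rates of 0.289 and 0.126. CCA1, RVE8 and TOC1 in the double mutant have 0.232, 0.187 and 0.121. In the other direction, PRR5 in lon2-8 and RVE8 against atg2-4 are listed by the authors and were not called by limma.

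Beyond these genes, 33 other clock genes were tested from a list. In atg2-4, 7 were higher and 8 lower; in lon2-8, 1 was higher and 9 lower; in the double mutant, 9 were higher and 9 lower. Over all genes the higher and lower shares were 21.3% and 27.2%, 9.06% and 14.1%, and 22.0% and 30.1% in the same order, so the 15 of 33 called in atg2-4 and the 18 of 33 in the double mutant are near the 48.5% and 52.0% of all genes. Their median log2 fold changes were 0.00, -0.11 and 0.01. The MYB genes RVE1 and RVE2, relatives of CCA1, fell in all 3 mutants. RVE1 was at 25.9, 26.8 and 27.1 FPKM (Col-0), 14.9, 13.6 and 15.4 (atg2-4), 15.8, 17.4 and 17.1 (lon2-8) and 12.8, 12.6 and 13.2 (double mutant). RVE1 fell by 0.82 ± 0.05 in atg2-4 (adjusted p = 2.81e-08), 0.64 ± 0.05 in lon2-8 (adjusted p = 1.70e-06) and 1.00 ± 0.05 with both mutations (adjusted p = 3.70e-09). RVE2 was at 77.5 ± 1.72 FPKM (Col-0), 44.8 ± 1.73 (atg2-4), 63.0 ± 3.11 (lon2-8) and 56.6 ± 0.200 (double mutant) (SD, n = 3). RVE4, the closest relative of RVE8, rose in atg2-4 by 0.22 and in the double mutant by 0.44 ± 0.05 (adjusted p = 6.84e-06), where RVE8 fell.

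LNK proteins are coactivators that work with RVE8 and RVE4. LNK2 fell in all 3 mutants, with levels of 35.3 ± 1.84 FPKM (Col-0), 29.4 ± 1.14 (atg2-4), 24.2 ± 0.272 (lon2-8) and 26.9 ± 1.48 (double mutant; SD, n = 3). LNK3 fell in lon2-8 by 0.61, and was higher in the double mutant than in lon2-8 by 0.56 ± 0.07 (adjusted p = 3.51e-05). ELF4-L1, a relative of ELF4, was at 1.25 ± 0.266 FPKM (Col-0), 3.74 ± 0.162 (atg2-4), 1.49 ± 0.649 (lon2-8) and 3.37 ± 0.469 (double mutant) (SD, n = 3). It rose by 1.08 ± 0.15 in atg2-4 (adjusted p = 7.00e-05), where ELF4 did not pass. TCP22, an activator of CCA1, rose in atg2-4 by 0.35 ± 0.05 (adjusted p = 5.90e-05) and fell in lon2-8 by 0.15. TIC, a nuclear protein that sustains the amplitude of the rhythm, was at 64.4 ± 0.553 FPKM in Col-0 and fell to 48.4 ± 0.920 in lon2-8 (SD, n = 3). The B-box gene BBX18 fell in lon2-8 by 0.90 ± 0.08 (adjusted p = 5.75e-06). FKF1, a blue-light F-box protein that GI binds, was lower in the double mutant than in atg2-4, at -0.32 ± 0.06 (adjusted p = 0.00737), and so was LNK1, at -0.30 ± 0.07 (adjusted p = 0.0151). From atg2-4 to the double mutant, 3 of the 33 other clock genes rose and 3 fell, beside 4.44% and 4.44% of all genes. From lon2-8 to the double mutant 15 rose and 4 fell, beside 25.3% and 24.6% of all genes. The interaction passed for 9 of the 33, all 9 positive, beside 13.2% of all genes, 7.10% positive and 6.08% negative. The list median of the interaction was 0.10 beside 0.03 over all genes.

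Clock output genes, whose transcripts follow the clock, fell more often than they rose. Of 17 tested, 13 fell and 0 rose in atg2-4, 9 fell and 0 rose in lon2-8, and 13 fell and 1 rose in the double mutant, beside 27.2%, 14.1% and 30.1% of all genes that fell. Their medians were -0.21, -0.40 and -0.30. GBSS1, the granule-bound starch synthase that makes amylose, was at 15.7, 15.8 and 16.9 FPKM (Col-0), 10.1, 9.50 and 9.01 (atg2-4), 9.06, 9.31 and 9.50 (lon2-8) and 9.57, 9.35 and 9.79 (double mutant). GBSS1 fell in all 3 mutants, at -0.70 ± 0.05, -0.74 ± 0.05 and -0.70 ± 0.05 (adjusted p at most 3.31e-07). The CONSTANS-like gene COL2 was lower in all 3 mutants, at 22.8, 23.1 and 23.4 FPKM (Col-0), 18.9, 17.8 and 16.7 (atg2-4), 10.8, 9.96 and 9.25 (lon2-8) and 17.2, 16.7 and 15.6 (double mutant). Its relative COL1, at 23.7 ± 0.716 FPKM in the wild type, fell to 20.5 ± 0.523 (atg2-4) and 17.7 ± 0.354 (lon2-8) and rose to 28.2 ± 0.203 (double mutant; SD, n = 3). CDF1, a Dof repressor of CONSTANS, was at 3.94 ± 0.126, 3.20 ± 0.215, 1.90 ± 0.0193 and 3.30 ± 0.295 FPKM for Col-0, atg2-4, lon2-8 and the double mutant (SD, n = 3).

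The growth factors PIF4 and PIF5, which the evening complex represses, were lower in the double mutant than in Col-0. PIF5 was at 34.6 ± 1.25 FPKM (Col-0), 30.7 ± 0.999 (atg2-4), 23.7 ± 0.276 (lon2-8) and 25.3 ± 0.478 (double mutant) (SD, n = 3). PIF4 was at 9.40 ± 0.396, 8.42 ± 0.111, 6.72 ± 0.305 and 5.77 ± 0.579 FPKM in that order, and it fell from atg2-4 to the double mutant by 0.48 ± 0.06 (adjusted p = 5.29e-04). GRP8, an RNA-binding protein of a slave oscillator, was at 139 ± 1.84 FPKM (Col-0), 102 ± 5.38 (atg2-4), 142 ± 7.84 (lon2-8) and 91.8 ± 1.87 (double mutant) (SD, n = 3). The lon2-8 libraries overlapped with Col-0, and GRP8 fell by 0.44 ± 0.04 from Col-0 to atg2-4 (adjusted p = 3.29e-06) and by 0.62 ± 0.04 from lon2-8 to the double mutant (adjusted p = 1.02e-07). LHCB1.1, LHCB1.2 and LHCB1.3 were lower in the double mutant than in Col-0, at -0.42, -0.38 and -0.30. These are near-identical copies whose reads the counting could split, and each is counted as a gene among the 17. From atg2-4 to the double mutant 2 of 17 output genes rose and 5 fell, beside 4.44% and 4.44% of all genes. From lon2-8 to the double mutant 6 rose and 7 fell, beside 25.3% and 24.6% of all genes. The interaction was positive for 8 and negative for 2 of 17, beside 7.10% and 6.08% of all genes.

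Genes of light input were tested because light sets the clock. In atg2-4, 2 of 21 rose and 12 fell; in lon2-8, 1 rose and 6 fell; in the double mutant, 3 rose and 12 fell. The shares of all genes that rose and fell were 21.3% and 27.2%, 9.06% and 14.1%, and 22.0% and 30.1%. Medians were -0.17, -0.09 and -0.18. PIF3, a bHLH factor that phytochromes degrade, was at 11.5, 12.3 and 12.3 FPKM (Col-0), 19.8, 17.4 and 18.3 (atg2-4), 10.7, 11.2 and 10.5 (lon2-8) and 21.3, 21.4 and 20.0 (double mutant). It rose by 0.58 ± 0.05 in atg2-4 (adjusted p = 1.30e-06), and its relative PIF1 fell there by 0.35 ± 0.05 (adjusted p = 3.86e-05). The red-light receptor PHYB fell by 0.31 ± 0.04 in atg2-4 (adjusted p = 3.50e-05) and by 0.40 ± 0.04 with both mutations (adjusted p = 3.22e-06). PHYA, the far-red receptor, rose in lon2-8 by 0.17 ± 0.03 (adjusted p = 0.00257). The photomorphogenesis repressor COP1 fell in atg2-4 by 0.32 ± 0.05 (adjusted p = 3.10e-04). From atg2-4 to the double mutant 1 light input gene rose and 2 fell, beside 4.44% and 4.44% of all genes. From lon2-8 to the double mutant 2 rose and 8 fell, beside 25.3% and 24.6% of all genes. The interaction was positive for 3 of 21, beside 7.10% positive and 6.08% negative over all genes. The 10 of 21 called against lon2-8 and the 3 of 21 in the interaction are near the 49.9% and 13.2% of all genes.

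**Figure D5:**
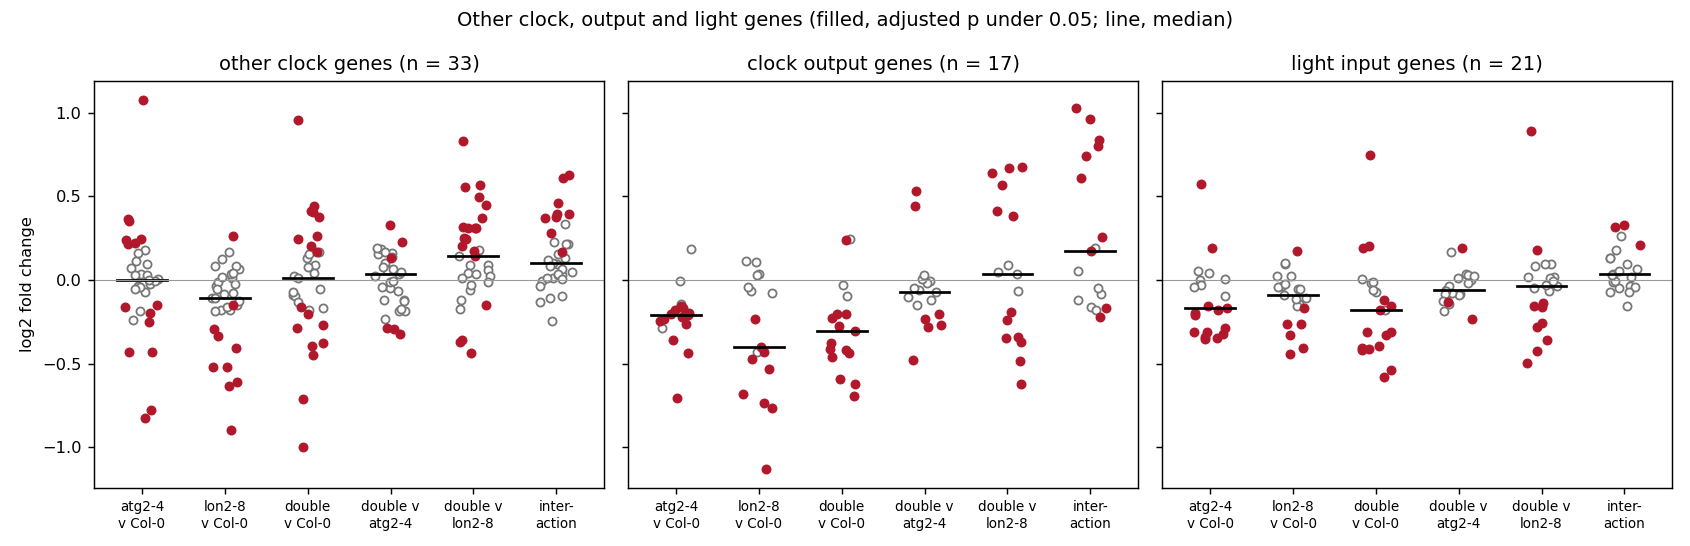
Log2 fold change (vertical axis, log2(FPKM + 1) scale) of each tested gene of the 3 lists in the 6 comparisons; filled points passed at an adjusted p of 0.05 and the bar is the list median. The output genes sit mostly below 0 in the comparisons with Col-0, with medians of -0.21, -0.40 and -0.30.

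The genes whose pattern over the 12 libraries was most like a clock gene were found by the root mean square difference of log2 values, each gene centred on its own mean. For TOC1 these were CAS1 (0.0321) and CYP71 (0.0325), and for LUX KUP7 (0.0358) and CPSF100 (0.0392). LHY was nearest to CHR24 (0.0437), CCA1 to AT5G62140 (0.0492), RVE8 to AT1G20920 (0.0426) and GI to DCF (0.0583). PRR5 was nearest to AT3G15550 (0.0530), PRR9 to MCM5 (0.0563) and ELF4 to AT4G08240 (0.0761), the loosest of the 10. The second nearest to PRR7, after AT4G11270 (0.0563), was LNK1 (AT5G64170, 0.0585), and no other clock gene of the lists was among the 2 nearest to any member. The spread of the clock genes themselves on that scale was 0.0711 in LUX to 0.221 in GI.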

How the data were processed

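Values are deposited FPKM per gene and library, computed by the authors, for 12 libraries; the deposited comparison tables hold, per the file headers, the false discovery rate, p-value and log2 fold change of each gene from a test that is not stated. Per the submitters' processing notes the tools included STAR 2.5.1a, Salmon 0.8.2, featureCounts 1.4.6-p5 of Subread, limma, edgeR and bcl2fastq; what each did, the build and the strand setting were not given in the sources used here. Per the labels' protocols, libraries were poly-A selected and read as pairs.

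Columns were assigned by the genotype and number in their names. FPKM were whole multiples of 1 fragment, within 0.01, for 26093 of 26093 genes, which gave the fragments per library. The mean chi-square per gene between replicates was 1.59 to 2.73, where 1 is counting noise, so replicates differed by more than counting noise. This cannot tell separate seedlings from separate libraries of the same RNA. The number of libraries limits the precision, and for PRR9 the number of fragments.

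Log2(FPKM + 1) was fitted, for genes reaching 1 FPKM in 3 or more libraries, with limma 3.58.1 (R 4.3.3), all 12 libraries in 1 model, with a variance trend and Benjamini-Hochberg adjustment over the 20662 genes tested in each of 6 comparisons. The fit was tested on simulated data. Alternatives were other pseudocounts and filters, median centring, no trend, only the groups compared, the replicate number as a block, and leaving out each library. Tables and figures used matplotlib 3.10.9, pandas 2.3.3 and numpy 2.4.6 in Python 3.11.15.

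The clock genes, the lists and the tests were chosen with earlier results of these data known. From each list, up to 4 genes of smallest adjusted p in each comparison were open to naming; RVE4, LNK3, TCP22 and others were also given values in comparisons where they were not among these 4. Names and promoter windows came from RefSeq TAIR10.1, to which all 26093 identifiers matched; 1 promoter window is not reported here. RVE6, RVE5, RVE3, COR28 and CDF5 were left out because the listed name was not that of RefSeq. ELF4-L3, CO, FT, CBF1, CBF3, PLT1, PLT2 and STM were under the filter, and WUS was not analysed here. Of the other markers, the summed levels of the vascular list lay between 47.5 and 54.4 FPKM and of the guard cell list between 15.2 and 18.9.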

Additional observations from a re-analysis of the deposited data

Results flagged for a closer look

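The effect of lon2-8 differed between the atg2-4 background and Col-0 in 15 named genes by the interaction term of the limma fit. They are the 4 clock genes that passed and, of each list, the 4 genes of smallest adjusted p, or 3 for light input. In the 4 clock genes the difference was 0.30 in LHY, 0.37 in CCA1, 0.42 in RVE8 and -0.41 in ELF4, all on the log2(FPKM + 1) scale. Among other clock genes it was 0.63 in RVE2, 0.46 in RVE1, 0.39 in LNK2 and 0.39 in TIC. Among output genes it was 1.03 in COL2, 0.84 in COL1, 0.80 in CDF1 and 0.74 in GBSS1, and among light input genes 0.33 in SPA3, 0.31 in PIF3 and 0.21 in PIF1. Of these 15 values, that of ELF4 was the only negative one, but the lists were cut by adjusted p. Outside the cut, 2 output genes passed with a negative value, LHCB1.2 at -0.22 (adjusted p = 0.0385) and LHCB1.1 at -0.17 (adjusted p = 0.0490). Their near-identical copy LHCB1.3 passed with a positive value, 0.18 (adjusted p = 0.0387), and the counting could split reads among these copies. Among the 15, the smallest adjusted p was 9.63e-07, in COL1, and the largest 0.0486, in PIF1.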

How the results depend on the processing

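Of 2932 values computed under the alternatives, 0 of those called there or in the reported fit changed sign. Another 10, all uncalled and all with 1 library left out, did: 7 in LUX, 2 in ELF4 and 1 in CCA1. Many of the 2932 could not change sign, because numbers of genes called are among them. Other filters, no trend, the block and only the groups compared also leave a log2 fold change as it was. So does leaving out a library of a group not compared, where only the adjusted p can move. With 1 library left out, the count of clock genes called ranged from 3 to 6 in atg2-4, 4 to 5 in lon2-8, 5 to 7 in the double mutant, 2 to 3 for the double mutant against atg2-4, 4 to 5 against lon2-8 and 3 to 4 for the interaction. Of 648 such values for single clock genes, 620 stayed on their side of the threshold, 26 lost a call and 2 gained one. Under the other settings the counts were 5 to 7, 4 to 5, 7 to 8, 3 to 4, 5 to 6 and 3 to 5 in the same order, and 418 of 423 values for single genes stayed on their side. Deviations of same-numbered libraries of different genotypes had correlations of -0.06 to 0.05, with 0 of 18 pairs over 0.1. A library correlated best with its own number in 18 of 36 cases. Each case had 3 libraries to choose from, so 18 is more than an even draw would give, and this was not tested. The replicate block left the counts at 6, 4, 7, 3, 5 and 4. The only setting that brought PRR9 under test was the fit with no filter, which gave 7, 5, 8, 4, 5 and 4. Depth limits PRR9, with 11 to 36 fragments per library, and the other clock genes had at least 261.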
